A study of Homo sapiens with 5 samples.

Results

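Epithelial cells hold to one another through E-cadherin, EPCAM and claudins, carry a cytoskeleton of simple-epithelial keratins, and depend on a small set of transcription and splicing factors. The genes described here are 10 such genes: CDH1, EPCAM, KRT8, KRT18, KRT19, CLDN4, CLDN7, GRHL2, ELF3 and ESRP1. They were chosen by name, out of 19689 that have a protein-coding transcript in GENCODE release 44 (GRCh38), and each was examined over its gene entry and 10 kb to each side. The sites of 3 proteins, ACTL6A, BRG1 and NRF2, were mapped by CUT&Tag, in which an antibody tethers a transposase that cuts and tags the DNA beside the bound protein. All 5 libraries came from SNU638, a human gastric cancer cell line, with no treatment named for any of them. The antibodies anti-BRG1, anti-NRF2 and anti-ACTL6A were used in 1 library each, and 2 further libraries used IgG, a nonspecific antibody that gives the background. With 1 library per antibody no difference had a replicate check, so counts and shares are given with no p-value.

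ACTL6A is an actin-related subunit of the BAF (SWI/SNF) chromatin remodeling complexes, BRG1 is a catalytic ATPase of these complexes, and NRF2 is the transcription factor of the antioxidant response. BAF complexes slide or evict nucleosomes at promoters and enhancers. Epithelial genes are known for being switched on by grainyhead-like and ETS factors and for being silenced, in the passage to a mesenchymal state, by repressors such as ZEB1 and SNAI1 that bind CAGGTG E-boxes, for which the CDH1 promoter is the textbook case.

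The lists held 23917 peaks for ACTL6A, 48793 for BRG1 and 9045 for NRF2, against 11 and 1746 for the IgG libraries. The number of sequenced fragments over each summit, the highest point of a peak, was recovered from the deposited values, with a median of 6 in the ACTL6A list, 10 in the BRG1 list and 17 in the NRF2 list. The NRF2 list named no summit with fewer than 8 fragments, whereas the ACTL6A and BRG1 lists went down to 3, so a missing NRF2 peak is a statement about a higher limit. A peak that is not listed was not called at this depth, which does not show that the protein was absent. For comparison, a BRG1 peak lay at a start site of 3 of 10 genes of a mesenchymal list (VIM, CDH2, ZEB1 and others). It did so at 1 of 10 genes typical of other cell types, beside 63.5% of all genes. Over the gene and 10 kb to each side the counts were 8 and 9 of 10, beside 82.7%.

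BRG1 peaks lay at the start sites of all the epithelial genes but CLDN4, ACTL6A peaks at those of 6, and NRF2 peaks at none. A transcriptional start site (TSS) was taken to hold a peak that came within 1 kb of the 5′ end of any protein-coding transcript of the gene. By this count 9 of the 10 genes had a BRG1 peak, the exception being CLDN4, beside 63.5% of all genes. ACTL6A peaks were found at 6 of 10 (EPCAM, KRT8, KRT18, KRT19, ELF3 and ESRP1), beside 38.5% of all genes. Within 250 bp of a TSS the ACTL6A count was 4 (EPCAM, KRT8, ELF3 and ESRP1), beside 32.7% of all genes. NRF2 peaks were found at 0 of 10, beside 28.1% of all genes, and none of the 10 had all 3 proteins, beside 22.1%. The 6 genes with ACTL6A all had BRG1 as well and no NRF2, a pattern of 14.7% of all genes. CDH1, CLDN7 and GRHL2 had BRG1 alone, as did 21.1% of all genes, and CLDN4 had none of the 3 proteins, as did 34.4%. No IgG peak lay at a TSS of the 10 genes, and 0.152% of all genes had one.

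**Figure D1:**
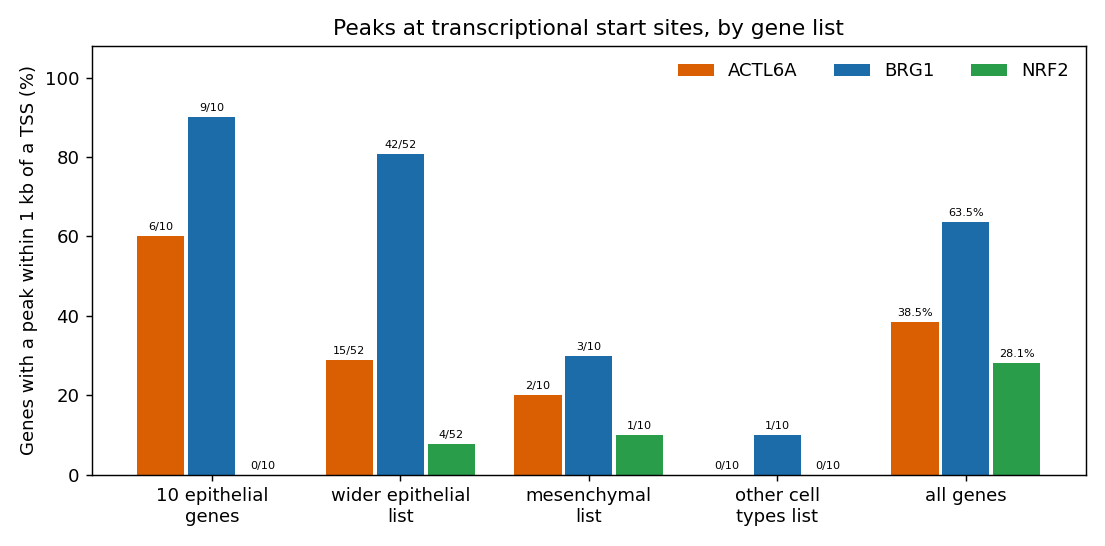
Percent of genes with a peak within 1 kb of a TSS (y axis) for ACTL6A, BRG1 and NRF2 in 5 gene sets, with the number of genes above each bar for the 4 lists and the percent above it for all genes. The bar for BRG1 stands at 9 of 10 for the epithelial genes and that for NRF2 at 0 of 10, against 63.5% and 28.1% of all genes.

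Over the whole gene and 10 kb to each side the picture was broader. All 10 genes had an ACTL6A peak and all 10 a BRG1 peak, beside 66.9% and 82.7% of all genes. NRF2 peaks were found near 4 of 10 (CDH1, CLDN4, CLDN7 and GRHL2), beside 41.1% of all genes, and an IgG peak near 1 (GRHL2), beside 1.70%. The median length of the 10 genes was 37796.5 bp, from 4036 bp for KRT18 to 177288 bp for GRHL2, against a median of 27330 bp over all genes. The regions held 15 different ACTL6A peaks, 41 BRG1 peaks and 4 NRF2 peaks, counting once those that KRT8 and KRT18 share.

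These peaks took different places. Of the 41 BRG1 peaks, 17 lay at a TSS of the 10 genes, 4 at a TSS of a neighboring gene, 6 elsewhere inside the genes and 14 outside them. Of the 15 ACTL6A peaks, 6 lay at a TSS, 2 at a TSS of a neighbor, 3 inside and 4 outside. Of the 4 NRF2 peaks, 3 belonged to start sites of neighbors (TANGO6 beyond CDH1, METTL27 beyond CLDN4, and the CTDNEP1 and ELP5 pair beyond CLDN7), and the last lay deep in an intron of GRHL2, where the second IgG library also had a peak.

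**Figure D2:**
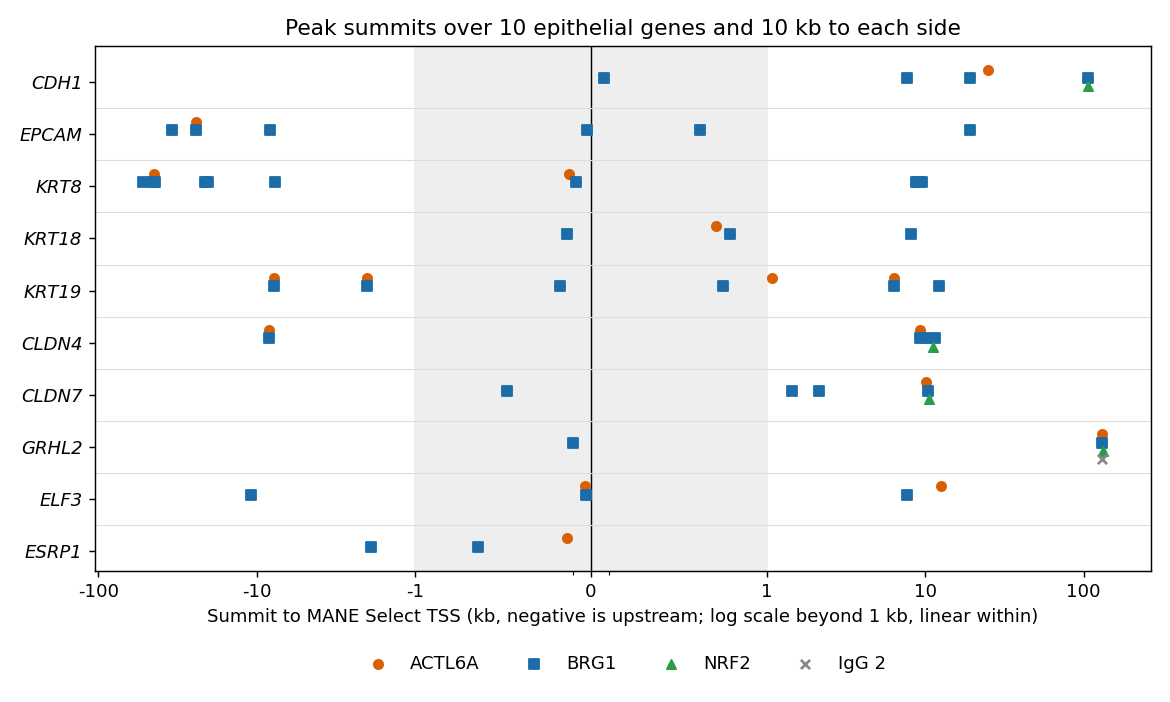
Distance of each peak summit from the start of the MANE Select transcript, the reference transcript of the gene, in kb (x axis, linear within 1 kb and logarithmic beyond it, negative upstream) for each gene (rows) and list (symbols). Shading marks 1 kb to each side of that start. Every row but CLDN4 has a BRG1 symbol within 1 kb of the start, though most BRG1 symbols stand farther from it. The 4 NRF2 symbols stand at the far right of CDH1, CLDN4, CLDN7 and GRHL2, and the only IgG symbol lies in GRHL2.

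CDH1 (ENSG00000039068, chr16:68737292-68835537, plus strand) encodes E-cadherin, the adhesion molecule of adherens junctions. The anti-BRG1 library had 14 fragments at a summit 74 bp downstream of its start, in exon 1 and its 5′ UTR, where 0.987 were expected by the peak caller. That peak stood at rank 14840, in the top 30.4% of the list. The better ranked sites were inside intron 2. A summit 19.2 kb downstream of the start had 29 fragments (rank 4075, top 8.35%) and another at 7.68 kb had 13 (rank 14184). The list for ACTL6A had no peak at either site or at the start, and gave instead a weak one of 4 fragments 24.8 kb into the gene, also in intron 2, at rank 12859 and without BRG1. NRF2 was listed only 106 kb downstream, at the TANGO6 start, with 15 fragments.

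The 200 bp around the summit 19.2 kb into CDH1 (GRCh38, chr16:68756343-68756542, plus strand) is shown because this intronic site ranked above the CDH1 promoter. Capitals here and in the other sequences mark matches to 5 short motifs searched on both strands: CAGGTG (an E-box), AACNGGTT (grainyhead factors), CCGGAAG (ETS factors), TGANTCA (AP-1) and TGACNNNGC (the core of the antioxidant response element, ARE). AP-1 and ARE matches can overlap.
CDH1 intron 2: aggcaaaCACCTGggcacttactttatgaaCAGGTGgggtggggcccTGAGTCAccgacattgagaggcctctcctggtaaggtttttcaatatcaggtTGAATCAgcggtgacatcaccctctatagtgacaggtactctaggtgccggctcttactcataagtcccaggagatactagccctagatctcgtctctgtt
It held 2 E-box matches and 2 AP-1 matches. The site 7.68 kb downstream was the only one of the 41 BRG1 windows with a grainyhead match, and it held 2 of them. Such a match was found in 0.723% of all BRG1 windows and in 1.73% of 35116 RefSeq promoters of 300 bp.

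EPCAM (ENSG00000119888, chr2:47345158-47387601, plus strand) encodes an epithelial adhesion molecule of the cell surface. BRG1 occupied both ends of its 5′ part. At the distant alternative start, 24.2 kb upstream of the MANE Select start, the BRG1 summit had 36 fragments (rank 2179, top 4.47%) and the ACTL6A summit, 33 bp away, had 11 (rank 3482, top 14.6%). At the MANE Select start the BRG1 summit had 31 fragments 24 bp upstream (rank 5069) and a second had 21 fragments 620 bp downstream, in intron 1. ACTL6A had no peak at either of these. A further BRG1 summit 8.19 kb upstream, in an intron of the longer transcript, had 14 fragments and is shown as the best ranked EPCAM site away from a start (chr2:47361024-47361223, plus strand).
EPCAM intron: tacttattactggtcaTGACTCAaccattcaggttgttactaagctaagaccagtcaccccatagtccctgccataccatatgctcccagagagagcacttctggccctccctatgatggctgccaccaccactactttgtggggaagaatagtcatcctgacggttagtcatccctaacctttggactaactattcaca
It held 1 AP-1 match. Of the EPCAM sites, then, the 2 proteins coincided only at the upstream alternative start. Both peaks there also cover the start of EPCAM-DT, a noncoding gene on the other strand, so they cannot be given to EPCAM alone.

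CLDN4 (ENSG00000189143, chr7:73799542-73832690, plus strand) and CLDN7 (ENSG00000181885, chr17:7259903-7263983, minus strand) encode claudins, the strand-forming proteins of tight junctions. CLDN4 was the 1 gene of the 10 with no peak of any list at a start. Its main site was shared by both BAF subunits and lay 8.32 kb upstream of the MANE Select start, in an intron of a longer transcript. The BRG1 summit there had 25 fragments (rank 7043, top 14.4%), the ACTL6A summit had 8 (rank 6477, top 27.1%), and the summits were 4 bp apart. The sequence of this site (chr7:73822571-73822770, plus strand) held 1 AP-1 match.
CLDN4 upstream: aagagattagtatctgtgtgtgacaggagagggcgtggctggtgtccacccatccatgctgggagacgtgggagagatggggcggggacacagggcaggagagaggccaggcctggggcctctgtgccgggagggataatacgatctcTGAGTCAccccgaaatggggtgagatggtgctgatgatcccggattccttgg
Downstream of CLDN4 the BRG1 list had summits of 21 and 13 fragments at 9.21 and 10.2 kb, the first of them with an ACTL6A peak of 6 fragments. At the METTL27 start, 11.5 kb downstream, BRG1 had 22 fragments and the overlapping NRF2 peak had 17 (rank 5026).

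CLDN7 showed the opposite arrangement, with BRG1 over the gene and ACTL6A only beyond it. The BRG1 summits had 15 fragments 475 bp upstream of the MANE Select start (8 bp from an alternative one), 15 in intron 1 and 14 in the 3′ UTR of exon 4, at ranks between 24075 and 27304. All of these lay in the middle of the list. The stronger peak of the region belonged to CTDNEP1 and ELP5, whose starts lie 10.4 kb downstream, where BRG1 had 31 fragments (rank 5938), NRF2 had 23 (rank 3110) and ACTL6A had 12 (rank 3859). Apart from the GRHL2 intron described below, this was the only site of the 10 regions at which peaks of the 3 proteins overlapped.

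KRT8 (ENSG00000170421, chr12:52897187-52949954, minus strand) and KRT18 (ENSG00000111057, chr12:52948871-52952906, plus strand) encode the keratins that pair into the filaments of simple epithelia. The genes lie head to head and their entries overlap. The 3 BRG1 peaks and the 1 ACTL6A peak of the KRT18 region all lie in the KRT8 region too, so they cannot be given to either gene alone. At the MANE Select start of KRT8 the BRG1 summit had 39 fragments (3.46 expected, rank 4864) and the ACTL6A summit, 38 bp from it, had 12 (rank 4040, top 16.9%).

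The best ranked BRG1 peak of the 10 regions lay 20.2 kb upstream of the MANE Select start of KRT8, within a longer KRT8 transcript. BRG1 had 64 fragments there against 3.48 expected, at rank 894 and in the top 1.83% of the list. It counts as a TSS peak because its edge came 865 bp from an alternative start, although its summit was over 1 kb away. ACTL6A and NRF2 had no peak at it. Its sequence (chr12:52925181-52925380, minus strand) held an AP-1 match inside an ARE core match.
KRT8 distal: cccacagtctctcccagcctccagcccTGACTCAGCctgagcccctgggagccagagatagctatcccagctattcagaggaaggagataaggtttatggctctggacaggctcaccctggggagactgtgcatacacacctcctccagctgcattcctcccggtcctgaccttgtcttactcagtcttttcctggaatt
Toward KRT18, BRG1 had 20 fragments 134 bp upstream of the MANE Select start of KRT18 and 42 fragments 793 bp downstream, in intron 1 (rank 4503, top 9.23%). ACTL6A had 7 fragments within 82 bp of the latter summit (rank 15219, top 63.6%). This intronic site of KRT18 is also a start of KRT8, since its BRG1 summit lay 29 bp from an alternative KRT8 start. It outranked the peak at the MANE Select start of KRT18, which stood at rank 21408 of the BRG1 list.

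KRT19 (ENSG00000171345, chr17:41523617-41528308, minus strand) encodes the smallest keratin, which has a very short tail. It had the most ACTL6A peaks of the 10 genes, with 4, and each overlapped a BRG1 peak. One lay in intron 1, 1.07 kb from the start, with 10 fragments, and counts as a TSS peak with its edge 979 bp from a start. A second lay at the KRT15 start downstream, with 15 fragments (rank 3550), and the others lay 2.01 and 7.76 kb upstream with 8 and 6 fragments. BRG1 had 15, 30, 33 and 14 fragments at these sites in the same order and 26 more at a summit 176 bp upstream of the start (rank 14065). The start was thus not the best ranked site of the gene, which was the one at the KRT15 start, followed by the one 2.00 kb upstream (rank 7778, top 15.9%). The sequence of the latter (chr17:41530204-41530403, minus strand) is shown as a site of both subunits outside any gene.
KRT19 upstream: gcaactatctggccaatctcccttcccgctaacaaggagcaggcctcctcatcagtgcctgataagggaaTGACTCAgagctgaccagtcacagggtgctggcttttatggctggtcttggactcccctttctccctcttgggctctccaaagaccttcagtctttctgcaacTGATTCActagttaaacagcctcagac
It held 2 AP-1 matches. The ACTL6A and BRG1 summits were 16 bp apart here, 1 bp apart at the KRT15 start and at the same base 7.76 kb upstream.

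Among the regulators, ELF3 (ENSG00000163435, chr1:202007945-202017183, plus strand) encodes an ETS factor of epithelia. It had BRG1 and ACTL6A at its start, with summits 7 bp apart. Both peaks also cover the start of ELF3-AS1, a noncoding gene on the other strand. The BRG1 summit had 35 fragments 27 bp upstream of the MANE Select start (rank 5479, top 11.2%) and the ACTL6A summit had 13 fragments 34 bp upstream (rank 3524, top 14.7%). The other peaks near ELF3 were weaker. BRG1 had 8 fragments 10.9 kb upstream and 9 fragments 7.71 kb downstream, and ACTL6A had 4 fragments 12.6 kb downstream, without BRG1. The upstream site (chr1:201999629-201999828, plus strand) held 1 AP-1 match.
ELF3 upstream: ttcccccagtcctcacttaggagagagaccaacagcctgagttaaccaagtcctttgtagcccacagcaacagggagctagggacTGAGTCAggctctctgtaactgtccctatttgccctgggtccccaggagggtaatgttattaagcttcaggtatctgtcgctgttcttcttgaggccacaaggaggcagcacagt
It was the weakest of the sites printed here.

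ESRP1 (ENSG00000104413, chr8:94641074-94707466, plus strand) encodes an RNA-binding protein that keeps the epithelial splicing pattern. The ACTL6A summit at its start had 16 fragments, 134 bp upstream, at rank 2656 and in the top 11.1% of the list, the best ranked ACTL6A peak of the 10 genes. The BRG1 peak overlapped it with a summit 641 bp upstream and 31 fragments, and a second BRG1 peak with the same 31 fragments lay 1.90 kb upstream (both at rank 7875).

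GRHL2 (ENSG00000083307, chr8:101492439-101669726, plus strand), a grainyhead-like factor that activates CDH1 and claudin genes, had the weakest BRG1 peak at a start. It had 3 fragments 103 bp upstream, the lowest number in that list, at rank 45106 (top 92.4%). In intron 9, 131 to 132 kb into the gene, all 3 antibodies had a peak, with 6 fragments for ACTL6A, 8 for BRG1 and 28 for NRF2 (rank 1887). The second IgG library had 30 fragments over the same place (rank 523 of its list), and its peak overlapped all 3. What part the background has in these 3 peaks was not tested. With peaks under an IgG peak left out, 14 ACTL6A, 40 BRG1 and 3 NRF2 peaks stayed, and those 3 NRF2 peaks were the ones at neighbors' starts.

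**Figure D3:**
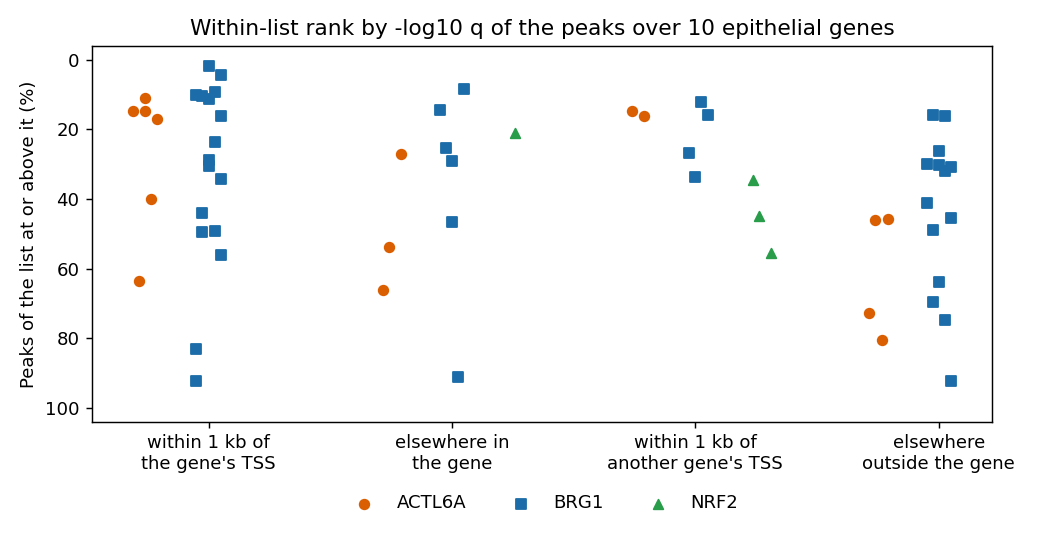
Within-list rank of each peak over the 10 genes, as the percent of the list's peaks at or above it by −log10 q (y axis, best at the top), by place (x axis) and list (symbols). The best is the BRG1 peak upstream of KRT8 at 1.83%, the ACTL6A peaks at a TSS lie between 11.1% and 63.6%, and the NRF2 peaks between 20.9% and 55.6%.

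BRG1 strength was compared between start sites and other places. The 17 BRG1 peaks at a TSS of the 10 genes had a median of 22 fragments and a median place in the top 28.8% of the list. The 20 that lay off any TSS had 14 fragments and the top 31.3%. Here and below only starts of protein-coding transcripts count as a TSS. The 20 therefore include peaks over noncoding starts, such as those of LINC02894 upstream of ESRP1 and BCYRN1 upstream of EPCAM. These 20 divide into 6 peaks inside the genes, with a median in the top 27.2%, and 14 outside them, with 36.5%, some of which lie inside neighboring genes. Over the regions of all genes, taken the same way, the medians were 18 fragments and 27.1% at a TSS (15165 peaks) and 8 fragments and 60.7% off any TSS (22532 peaks). ACTL6A had a median of 11.5 fragments at a TSS and 6 both inside and outside the genes. For ACTL6A the TSS peaks also ranked higher, in the top 15.8% at the median, against 53.8% inside and 59.4% outside.

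Most ACTL6A peaks touched a BRG1 peak. Of the 15 ACTL6A peaks 13 had 1 bp or more in common with BRG1, 86.7% (95% Wilson interval 62.1 to 96.3%, which treats peaks as independent and covers counting error only), against 58.2% of the 16897 ACTL6A peaks over all gene regions. When the shared part had to cover 50% of both peaks the share fell to 40%, for which no share over all genes is given here. At a TSS an overlap of 1 bp or more was found for 6 of 6 against 87.1%. Off any TSS it was found for 5 of 7 (71.4%, 35.9 to 91.8%) against 36.4%, which lies inside that interval. Those 5 lay near KRT19 and CLDN4 and in the GRHL2 intron, where the second IgG library also had a peak. Several of them lie at 1 gene, so they are not independent. The reverse share was far lower. Of the 41 BRG1 peaks 13 overlapped ACTL6A, 31.7% (19.6 to 47.0%) against 25.7% over all gene regions. The exceptions among ACTL6A peaks were the weak sites 24.8 kb into CDH1 and 12.6 kb downstream of ELF3, with 4 fragments each. Between the 13 overlapping pairs the summits were a median of 38 bp apart, and 4 pairs came within 10 bp (30.8%), against a median of 65 bp and 17.3% over all 12033 pairs.

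The missing NRF2 at the start sites was set against the strength of the BRG1 peak there, since NRF2 was listed more often where BRG1 was strong. Over all genes with BRG1 at a TSS 43.6% also had NRF2, and of those with both ACTL6A and BRG1 60.0% had it. Peak by peak, the share of BRG1 TSS peaks that overlapped NRF2 went from 6.75% below 10 BRG1 fragments through 19.8%, 38.2% and 52.3% to 69.6% at 40 or more. The 17 TSS peaks of the epithelial genes were spread over these 5 classes as 1, 5, 4, 5 and 2, and in each class 0 overlapped NRF2. In total this was 0 of 17, with an interval of 0 to 18.4%, against 32.1% of all BRG1 TSS peaks. Several of the 17 lie at 1 gene, so they are not independent. With ACTL6A the same 17 overlapped in 0, 1, 0, 4 and 1 cases, 6 in all (35.3%, 17.3 to 58.7%), against 41.1% of all.

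**Figure D4:**
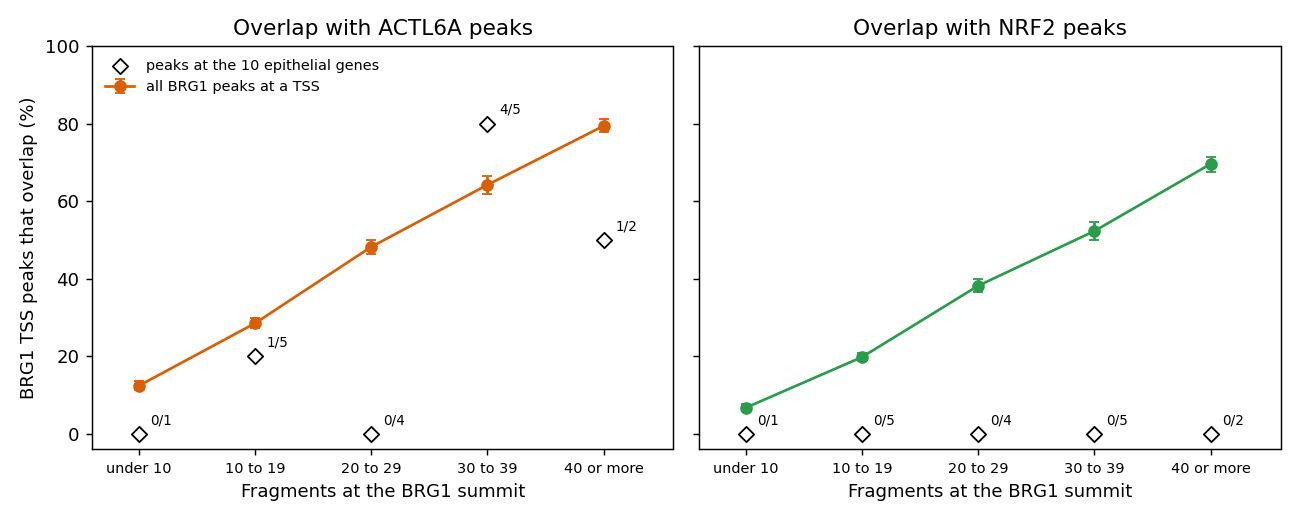
Percent of BRG1 peaks at a TSS that overlap an ACTL6A peak (left) or an NRF2 peak (right), by the number of fragments at the BRG1 summit (x axis). Filled points are all BRG1 TSS peaks with 95% Wilson intervals, and open diamonds are the peaks at the 10 epithelial genes with their numbers. The line for NRF2 goes from 6.75% to 69.6%, while every open diamond in that panel stands at 0.

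The base composition at these starts was measured as well. In the 200 bp around the 17 BRG1 TSS summits the ratio of observed to expected CpG had a median of 0.541 (from 0.0663 to 0.988), against 0.768 for all BRG1 TSS summits. Low ratios went with fewer NRF2 peaks in the genome at large, 13.9% of the BRG1 TSS peaks with a ratio under 0.5 against 35.4% between 0.5 and 0.75 and 37.9% between 0.75 and 1. The epithelial genes had 8, 6 and 3 peaks in these 3 classes, each with 0 NRF2 overlaps. GC content was much alike, with medians of 64.5% and 67%. The part of CpG content in the NRF2 count was not tested beyond these shares.

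The motif matches were counted in the 200 bp around every summit. The RefSeq promoters are 300 bp long, so the promoter shares here and below are not matched to these windows in length. E-box matches were found at 15 of 41 BRG1 windows (36.6%), against 24.9% of all BRG1 windows and 20.6% of the RefSeq promoters. At a TSS they were found at 9 of 17 windows, against 19.2% of all BRG1 windows at a TSS, and at 5 of the 20 windows off any TSS, against 27.5%. Of the 9 windows, 7 were those of the BRG1 summit nearest the MANE Select start of CDH1, EPCAM, KRT8, KRT18, GRHL2, ELF3 and ESRP1, and the others lay in CLDN7 intron 1 and near an alternative start of KRT8. AP-1 matches were found at 7 of the 20 windows off any TSS (16.9% of all such windows) and at 3 of the 17 at a TSS (4.80%), 10 of 41 in all (24.4% against 13.2%, and 7.71% of promoters).

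AP-1 matches were more common in strong BRG1 sites in general, at 30.0% of the windows off any TSS with 20 or more fragments, 22.8% with 10 to 19 and 11.6% below 10. The epithelial genes had 3 of 5, 3 of 10 and 1 of 5 in these classes. Each of the best ranked BRG1 summits farther than 1 kb from a start that is printed above, for CDH1, EPCAM, KRT8, KRT19, CLDN4 and ELF3, held at least 1 match, while those of ESRP1 and GRHL2, which are not printed, held none. This was counted after the sequences were seen. ARE core matches were found at 8 of 41 BRG1 windows (19.5% against 11.5% of all, and 13.3% of promoters) and at 0 of the 4 NRF2 windows (9.66% of all NRF2 windows). ETS matches were found at 1 of 41 BRG1 windows (3.70% of all) and at 2 of the 4 NRF2 windows (6.29% of all), those of TANGO6 and of the CTDNEP1 and ELP5 pair, beside 10.3% of promoters. For ACTL6A, E-box matches were found at 4 of 15 windows (23.3% of all) and AP-1 matches at 3 of 15 (8.04% of all).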

How the data were processed

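Per the labels and methods, SNU638 cells were processed by CUT&Tag and sequenced as 150 bp paired-end reads. The submitters' processing notes name fastp 0.23.0, FastQC, BWA, MACS2, deepTools, HOMER 4.11 and the hg38 build. The methods state that uniquely mapped reads were kept and that MACS2 called peaks at a q limit of 0.05. KRT8 and KRT18 have many processed pseudogenes, so reads from their exons may map to more than 1 place and be dropped, which was not tested. The control given to the peak caller is not given in the sources used here. The authors deposited 1 peak list per library, with a score, a fold enrichment (ratio) at the summit, and a −log10 p-value and −log10 q-value for each peak. These values depend on the depth of each library, so none was compared between lists, and peaks were ranked within a list by −log10 q.

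Fragments at a summit were taken to be the integer from which a Poisson model returns the deposited −log10 p-value and fold together, to within 0.001 and with the caller's pseudocount of 1. This succeeded for 99.1% to 100% of the peaks of each list. Regions, start sites and exons came from GENCODE release 44. Overlap meant at least 1 shared bp. Motifs were searched in 200 bp around summits in GRCh38, and printed sequences were trimmed to stretches outside annotated UTRs. Of the 10 genes, 4 (KRT8, CLDN4, CLDN7 and ELF3) matched the RefSeq promoter table, which was used only for motif shares over all promoters. The overlap, recovery and motif steps were tested on simulated data. Python 3.11.15, NumPy 2.4.6, pandas 2.3.3, SciPy 1.17.1, statsmodels 0.14.6 and matplotlib 3.10.9 were used.

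The members and the comparison lists were chosen with earlier results of these data known. All 10 genes were named, and of the wider epithelial list the 3 genes with the best ranked TSS peak of each antibody. Alternatives were a −log10 q minimum of 5, the highest 5000 peaks, TSS distances of 250 bp and 3 kb, MANE Select starts only, the gene alone or 50 kb to each side, overlap of 50% of both peaks, removal of peaks under IgG peaks, and each IgG library left out.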

Additional observations from a re-analysis of the deposited data

How the results depend on the processing

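Of 65 values under alternative settings, over 14 counts and shares, 46 stayed within 1.5 times the reported count or within the interval of the reported share, and 19 moved beyond that. The count of epithelial genes with NRF2 at a TSS stayed at 0 under all 5 alternatives, while the share over all genes ranged from 17.2% to 29.7%. For ACTL6A at a TSS the count was 4 within 250 bp, 4 with a −log10 q minimum of 5 and 4 with the highest 5000 peaks. The shares over all genes were then 32.7%, 23.7% and 19.4%. With MANE Select starts only the ACTL6A count was 5 (34.6% of all genes), and within 3 kb it was 6 (43.5%). With the highest 5000 peaks of each list, ACTL6A was left near 6 genes with 6 peaks, and BRG1 at the TSS of 3 genes (EPCAM, KRT8 and KRT18) and near 4 genes with 5 peaks, since fewer peaks entered, and the number of all 19689 genes with BRG1 at a TSS went from 12512 to 3739. With a −log10 q minimum of 5 the ACTL6A peaks fell to 7, and the share of ACTL6A peaks on BRG1 became 100%. Over the gene alone the peaks numbered 9 for ACTL6A, 22 for BRG1 and 1 for NRF2 (1 gene), and with 50 kb to each side 30, 82 and 12 (7 genes), as the regions shrank or grew. Requiring 50% of both peaks lowered the share of ACTL6A on BRG1 to 40%, of BRG1 on ACTL6A to 14.6% and of NRF2 on BRG1 to 50%. Leaving out each IgG library in turn gave 0 to 1 genes with an IgG peak, the 1 being GRHL2 in the second library. No paired analysis was possible because there was a single library for every antibody.

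The NRF2 list named no summit under 8 fragments, and the peaks of 3 to 6 fragments at CDH1, KRT8, KRT19, CLDN4, GRHL2 and ELF3 rest on few reads. KRT8 and KRT18 share peaks, and peaks at several starts of 1 gene are not independent. Peak lists give no signal between peaks, so a site with no peak has no value here, and without RNA data no level of expression of the 10 genes was examined.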

Other observations

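Beyond the 10 genes, a wider epithelial list of 52 genes had BRG1 at a TSS in 42 (80.8%), ACTL6A in 15 (28.8%) and NRF2 in 4 (7.69%), against 63.5%, 38.5% and 28.1% of all genes. All 52 had a BRG1 peak over the gene and 10 kb to each side, 35 an ACTL6A peak (67.3%) and 11 an NRF2 peak (21.2%), against 82.7%, 66.9% and 41.1% of all genes. BRG1 was at a TSS of 13 of 13 genes of adherens junctions and desmosomes and 14 of 14 of tight junctions, but of 2 of 7 other keratins, 4 of 7 regulators and 9 of 11 surface and trafficking genes. NRF2 was at a TSS of 0 of 13, 2 of 14, 0 of 7, 2 of 7 and 0 of 11 in the same order.

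The best ranked TSS peaks of this wider list were for the most part in the same few genes. For BRG1 they were at LSR, a receptor of tricellular junctions (85 fragments, rank 387), JUP, which encodes plakoglobin (85 fragments, rank 722), and F11R, which encodes junctional adhesion molecule A (67 fragments, rank 874). For ACTL6A they were at LSR (31 fragments, rank 341), F11R (22 fragments, rank 867) and JUP (18 fragments, rank 2407), each overlapping BRG1. For NRF2 they were at LSR (26 fragments, rank 1854), TJP3 (18 fragments, rank 6580) and ESRP2, a splicing factor related to ESRP1 (20 fragments, rank 7287). LSR had peaks of all 3 proteins at the same start, whereas the JUP and F11R peaks had no NRF2 overlap in spite of 85 and 67 BRG1 fragments. The mesenchymal list had ACTL6A at a TSS of 2 of 10 genes, BRG1 of 3 and NRF2 of 1, and the list of other cell types 0, 1 and 0 of 10. The shares of all genes were 38.5%, 63.5% and 28.1%.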
